A study of Neogale vison with 6 samples.

Results

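The genes described are those of the SREBP control circuit, namely the transcription factors SREBF1 and SREBF2, the sterol sensor SCAP, the retention proteins INSIG1 and INSIG2, the proteases MBTPS1 and MBTPS2, and the sterol carrier STARD4. They were chosen by name, and all 8 were found among the 24526 genes of the count table. For 7 of them the row carries the same symbol. INSIG2 is absent as a symbol and was taken from the row INSI2, whose description is that of insulin induced gene 2.

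SREBPs are made as membrane proteins of the endoplasmic reticulum (ER), where they are bound to SCAP. When sterols are plentiful, SCAP and the INSIG proteins hold the complex in the ER. When sterols run low, SCAP leaves INSIG and escorts the SREBP in COPII vesicles to the Golgi, where the site-1 protease (MBTPS1) and the site-2 protease (MBTPS2) release the part that enters the nucleus. SREBP-2, the product of SREBF2, acts mainly on genes of cholesterol synthesis and uptake, and SREBP-1, the product of SREBF1, mainly on genes of fatty acid synthesis. INSIG1 is itself a target of nuclear SREBP, and STARD4 carries cholesterol between membranes through the cytosol.

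Mv1Lu, an epithelial line from mink lung, gave 6 libraries, of which 3 came from untreated cells (control) and 3 from cells after cholesterol depletion (CD). In CD, the cells received 50 μM lovastatin, a statin that inhibits HMG-CoA reductase, together with 50 μM mevalonate for 16 h, in medium with 10% LPDS (lipoprotein-deficient serum). The comparison therefore covers statin, mevalonate and serum together. Nothing in the labels says that the libraries came from separate cultures, so the p-values measure the spread between these libraries, which may be technical.

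Reads counted on genes numbered between 13473820 and 18633764 per library. All 8 genes passed the filter on low counts (about 10 counts in 3 libraries), as did 12148 genes in all. Levels are given as CPM, the share of a library's reads scaled to a common total, after TMM scaling. Differences are log2 fold changes of CD against control from the quasi-likelihood test of edgeR, called at a false discovery rate (FDR, Benjamini-Hochberg over all tested genes) under 0.05. By the biological coefficient of variation, the CD libraries (0.213) scattered more than the controls (0.0842). Of the 6 epithelial markers listed, 4 were found. KRT19 averaged 936 CPM in control cells against 458 CPM under CD and CLDN4 went the other way, from 0.603 to 7.03 CPM (both called by edgeR), whereas EPCAM and CDH1 had at most 4 and 6 counts in any library. Of the 5 alveolar or airway markers, the surfactant genes SFTPB and SFTPC had 0 counts, and SCGB1A1 was called lower (1.41 to 0.598 CPM, edgeR). The 4 fibroblast markers summed to between 109.9 and 138.6 CPM in control and between 36.4 and 50.6 CPM in CD libraries. Nearly all of this sum was COL3A1 and COL1A1. PDGFRA was not called (-0.04 in log2, FDR 0.92, edgeR), and DCN averaged 0.061 CPM in control and 0.328 CPM in CD libraries. The immune markers found, PTPRC and CD68, rose in sum from between 5.13 and 5.62 CPM to between 16.9 and 22.4 CPM. Nearly all of the immune sum was CD68, while PTPRC had at most 1 count in a library. The 3 endothelial markers summed to at most 0.307 CPM in any library. The part of these markers in the results was not tested.

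Under CD, INSIG1, STARD4 and INSIG2 were higher, SREBF1 was lower, and SREBF2, SCAP, MBTPS1 and MBTPS2 did not pass the test. Thus 4 of the 8 genes were called, 3 higher and 1 lower, where 47.7% of all tested genes were called, 24.8% higher and 22.9% lower. The same 4 genes had no overlap between the groups, 3 with all CD libraries above and 1 with all below the controls, against 58% of all tested genes in either direction, 29.5% above and 28.6% below. The median log2 fold change of the 8 genes was 0.05, and that of all tested genes was 0.06. As a share, the calls among the 8 genes were close to the background, so the values of the single genes and their order follow.

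**Figure D1:**
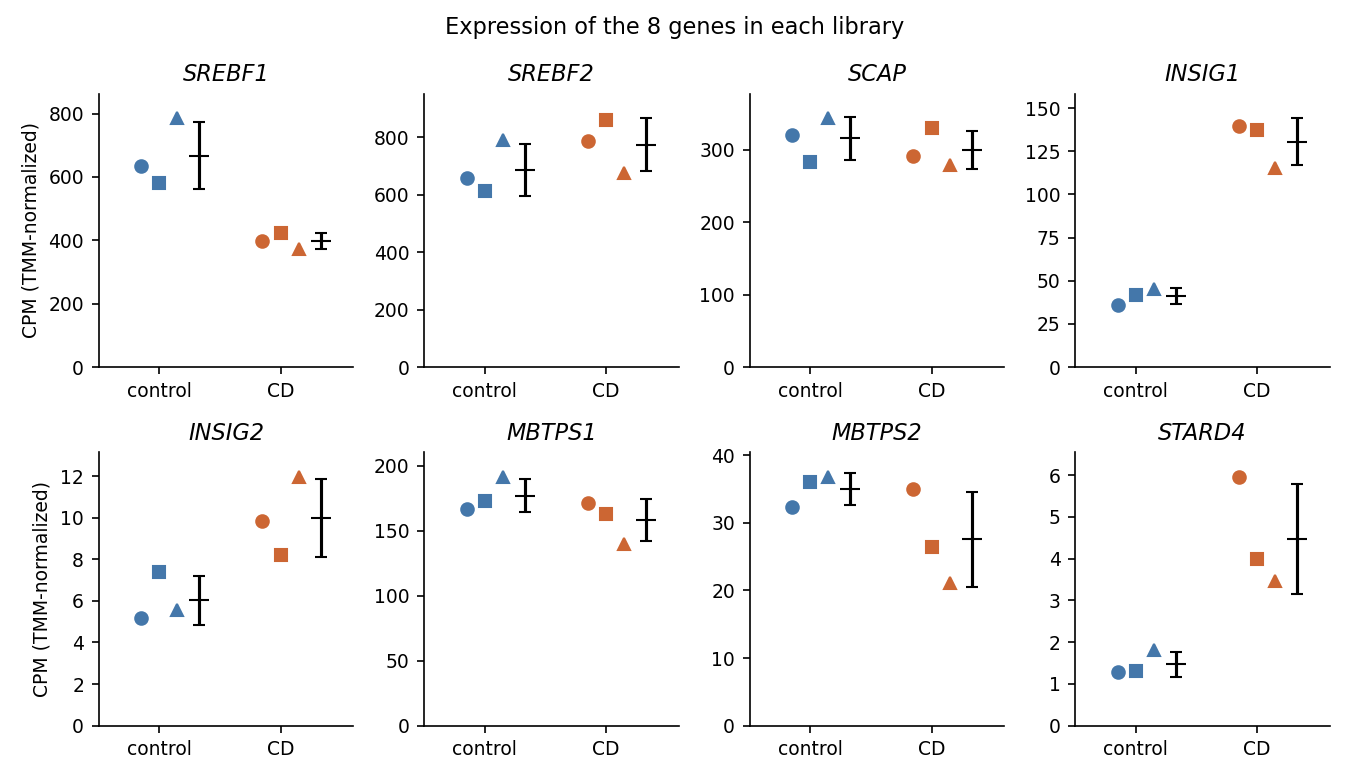
Each panel plots 1 gene, with the CPM of each library on the vertical axis (circle, square and triangle for replicates 1, 2 and 3; control in blue, CD in orange) and the mean ± SD of 3 libraries in black. The CD libraries lie above all control libraries for INSIG1, INSIG2 and STARD4, and below them for SREBF1, while the groups overlap in the other panels.

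INSIG1 (ENSNVIG00000000333), the INSIG gene that answers to nuclear SREBP, had 502, 580 and 824 counts in the control libraries, or 36.0, 41.9 and 45.4 CPM. The CD libraries had 2272, 2234 and 1599 counts, or 140, 137 and 115 CPM. The groups were far apart, and the lowest CD library (replicate 3) exceeded the highest control library by 1.34 on the log2 scale. The log2 fold change was 1.67 (standard error 0.14, 95% interval 1.37 to 1.97, FDR 8.48e-06, edgeR), which is 3.18-fold. This was above the log2 fold change of 96.0% of the tested genes, and 16.0% of the genes called higher changed more.

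INSIG2 (ENSNVIG00000002546), the paralog of INSIG1 with the same role in ER retention, was counted far less often, with 72, 102 and 101 counts in control and 160, 134 and 166 in CD libraries. These are 5.16, 7.37 and 5.56 CPM against 9.83, 8.22 and 11.96 CPM. The groups did not overlap, but the gap between the highest control and the lowest CD library was only 0.16 on the log2 scale. In log2, INSIG2 rose by 0.73 (standard error 0.22, 95% interval 0.25 to 1.21, FDR 0.0189, edgeR), or 1.66-fold. The call was lost without control replicate 1 (0.63, FDR 0.0912, edgeR) and without control replicate 3 (0.67, FDR 0.0846, edgeR).

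STARD4 (ENSNVIG00000021052), the soluble sterol carrier, was the gene with the fewest reads. It had 18, 18 and 33 counts in control libraries (1.29, 1.301 and 1.82 CPM) and 97, 65 and 48 in CD libraries (5.96, 3.99 and 3.46 CPM). Every CD library was above every control library, although the CD libraries differed among themselves with a coefficient of variation of 29.5%. Counting error alone allows 10.7 to 28.4 for a count of 18 (exact 95% Poisson interval, counting error only). For STARD4 the log2 fold change was 1.59 (standard error 0.28, 95% interval 0.96 to 2.22, FDR 0.00120, edgeR), or 3.01-fold. The estimate for STARD4 differed from that of INSIG1 by less than its standard error. With 1 library left out in turn, its log2 fold change lay between 1.33 (without CD replicate 1) and 1.78 (without control replicate 3).

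SREBF1 (ENSNVIG00000024888), which encodes SREBP-1, was the only one of the 8 genes called lower. Control libraries had 634, 582 and 785 CPM from 8845, 8050 and 14242 counts. CD libraries had 399, 424 and 372 CPM from 6496, 6911 and 5163 counts. The control libraries were the more scattered, with a coefficient of variation of 15.8% against 6.54% in CD, and the lowest of them was still above the highest CD library by 0.46 on the log2 scale. The log2 fold change was -0.74 (standard error 0.14, 95% interval -1.05 to -0.44, FDR 0.00146, edgeR), which is 0.597 of the control level. Of the genes called lower, 60.6% changed more than SREBF1.

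SREBF2 (ENSNVIG00000022327), which encodes SREBP-2, was at 658, 614 and 789 CPM in control and at 787, 858 and 677 CPM in CD libraries. The ranges overlapped, since control replicate 3 was above CD replicates 1 and 3. In log2 the difference was 0.17 (standard error 0.14, FDR 0.34, edgeR), with a 95% interval of -0.14 to 0.49, or 0.907-fold to 1.40-fold. A change of the size seen in INSIG1 lies outside this interval, and a modest rise lies within it. With limma-voom and sample weights, SREBF2 was called higher at a log2 fold change of 0.30 (FDR 0.0187).

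SCAP (ENSNVIG00000022337), the escort that senses sterols through its membrane domain, was at 320, 283 and 344 CPM in control and at 291, 330 and 279 CPM in CD libraries. The CD values fell within the control range or just under it. Its log2 fold change was -0.07 (standard error 0.12, FDR 0.64, edgeR), with a 95% interval of 0.788-fold to 1.14-fold. Of the 8 genes, it had the smallest estimate in size.

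MBTPS1 (ENSNVIG00000020642), the serine protease that makes the first cut in the SREBP, was at 167, 173 and 192 CPM in control and 171, 163 and 140 CPM in CD libraries. The groups overlapped, and the log2 fold change was -0.16 (standard error 0.12, FDR 0.28, edgeR), with a 95% interval of 0.743-fold to 1.07-fold. MBTPS2 (ENSNVIG00000000714), the metalloprotease that makes the second cut within the membrane, was at 32.3, 36.0 and 36.8 CPM in control and 35.0, 26.5 and 21.1 CPM in CD libraries. Here CD replicate 1 lay within the control range and the other CD libraries below it, so that the coefficient of variation was 25.5% in CD and 6.83% in control. The log2 fold change was -0.35 (standard error 0.18, FDR 0.15, edgeR), with a 95% interval of 0.592-fold to 1.05-fold. MBTPS2 was called lower without CD replicate 1 (-0.55, FDR 0.0155, edgeR), and also with limma-voom and sample weights (-0.33, FDR 0.0277).

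**Figure D2:**
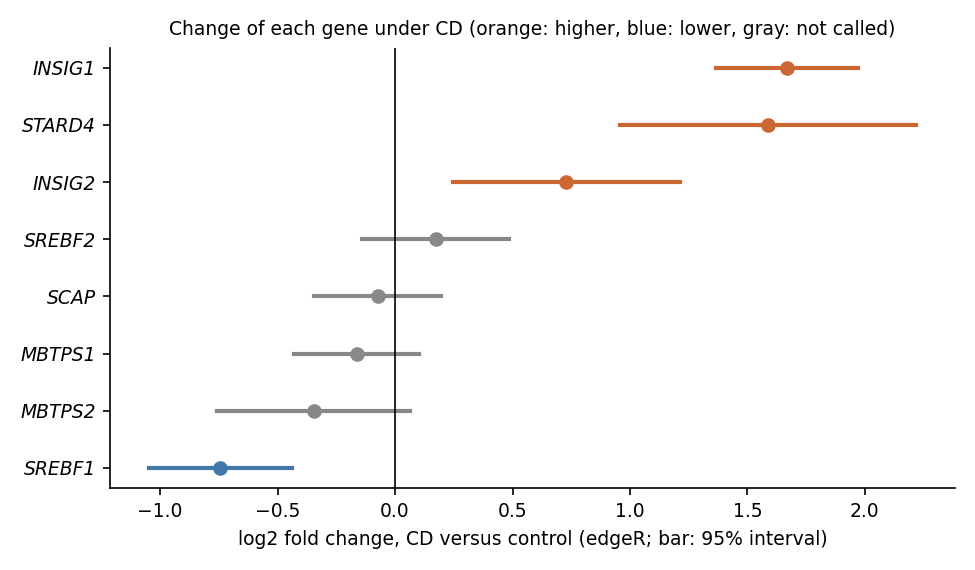
Points on the horizontal axis are the edgeR estimates of the log2 fold change (CD against control) of each gene, and bars are 95% intervals. The intervals of INSIG1, STARD4 and INSIG2 lie above 0 and that of SREBF1 below it, while those of SREBF2, SCAP, MBTPS1 and MBTPS2 include 0.

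In the order of their changes, INSIG1 and STARD4 came first and did not differ beyond their errors, and INSIG2 came next. SREBF2, SCAP, MBTPS1 and MBTPS2 followed, each within the sum of standard errors of its neighbor, and SREBF1 was last. CD replicate 3 was the lowest CD library for INSIG1, STARD4, SREBF1, SREBF2, SCAP, MBTPS1 and MBTPS2, and the highest for INSIG2. In this library 9.37% of the reads were unmapped, against 3.54% and 4.33% in CD replicates 1 and 2. Control replicates 1 and 2 had larger shares, of 18.4% and 13.6%, and control replicate 3 had 4.25%. The part of these shares in the values was not tested. Without CD replicate 3 the calls of the 8 genes were as before, with log2 fold changes of 1.71 for INSIG1, 0.55 for INSIG2, 1.70 for STARD4 and -0.73 for SREBF1.

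Because the genes act as complexes and pairs, 6 ratios of counts were also taken within each library, where the scaling between libraries cancels. A ratio mixes genes of unequal length, so its change between the groups can be read, but not its level. With 3 libraries against 3, the two-sided exact permutation test of a ratio cannot give a p below 0.1, and no ratio could therefore reach 0.05.

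The ratio of SREBF1 to SREBF2 separated the groups most tightly. It was 0.964, 0.947 and 0.995 in the control libraries and 0.507, 0.494 and 0.550 in the CD libraries. Thus SREBF1 took 49.2% ± 0.623 of the reads of both genes in control and 34.1% ± 1.25 in CD cells (SD, n = 3 libraries each). In log2 the ratio differed by -0.91 between the groups (standard error 0.051), while it varied within them by an SD of 0.036 in control and 0.080 in CD (exact permutation test, two-sided p = 0.1, adjusted p = 0.15 over 6 pairs). Within the control group SREBF1 and SREBF2 were both highest in replicate 3 and both lowest in replicate 2, and their ratio varied less than either level.

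The ratio of INSIG1 to SCAP, the partners that hold SREBPs in the ER, was 0.112, 0.148 and 0.132 in control and 0.479, 0.416 and 0.413 in CD libraries. It was 3.35-fold higher in CD (log2 difference 1.74, standard error 0.13), with no overlap between the groups (exact permutation test, two-sided p = 0.1, adjusted p = 0.15). The ratio of INSIG2 to SCAP was 1.75-fold higher on average (log2 difference 0.80, standard error 0.32), but control replicate 2, at 0.0260, lay above CD replicate 2, at 0.0249 (exact permutation test, two-sided p = 0.2, adjusted p = 0.24).

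Between the INSIG paralogs, the ratio of INSIG1 to INSIG2 was 6.97, 5.69 and 8.16 in control and 14.2, 16.7 and 9.63 in CD libraries. Each CD library was above each control library, by 1.92-fold on average (log2 difference 0.94, standard error 0.28, exact permutation test, two-sided p = 0.1, adjusted p = 0.15). CD replicate 3 came nearest to the controls. The ratio of SREBF2 to SCAP, its escort, was 2.05, 2.17 and 2.30 in control and 2.702, 2.602 and 2.427 in CD libraries. This was a small difference without overlap, of 0.25 in log2 (standard error 0.065, exact permutation test, two-sided p = 0.1, adjusted p = 0.15). For the ratio of MBTPS1 to MBTPS2 the groups overlapped, and the log2 difference of 0.21 had a standard error of 0.14 (exact permutation test, two-sided p = 0.3, adjusted p = 0.3).

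**Figure D3:**
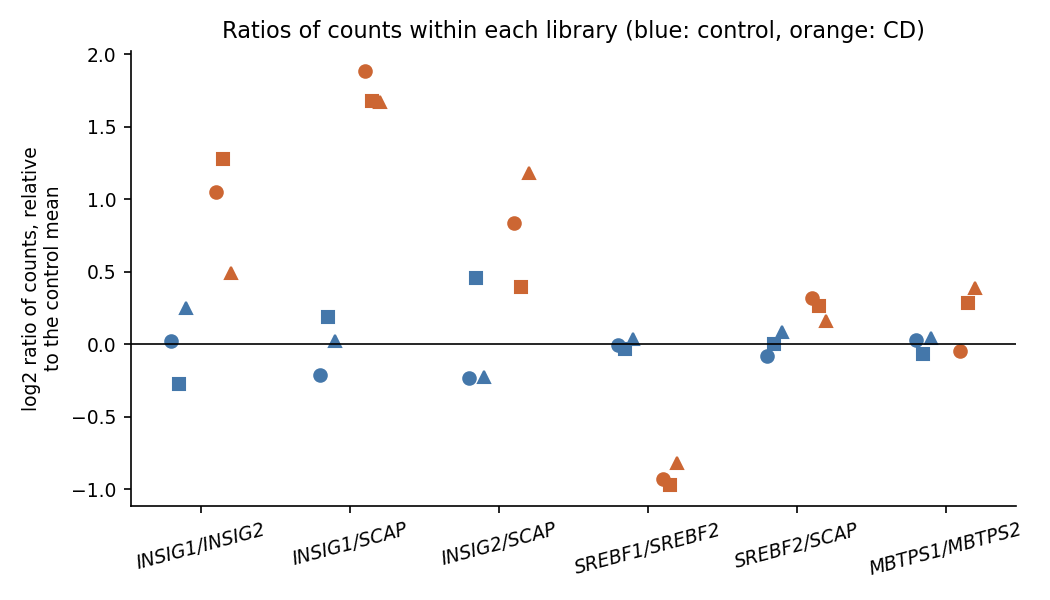
For each of the 6 pairs, the vertical axis is the log2 ratio of counts within a library minus the mean log2 ratio of the control libraries (control in blue, CD in orange; circle, square and triangle for replicates 1, 2 and 3). The CD libraries lie above the controls for INSIG1/INSIG2, INSIG1/SCAP and SREBF2/SCAP and below them for SREBF1/SREBF2, and the groups overlap for INSIG2/SCAP and MBTPS1/MBTPS2.

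The genes on which SREBPs act were set beside the circuit as 2 lists taken from general knowledge. Of 22 genes of sterol synthesis and uptake, 20 were found and tested, and 18 were higher and 0 lower under CD (edgeR, FDR under 0.05), with a median log2 fold change of 1.49. The share called was 90%, against 47.7% of all tested genes. HMGCS1, which makes HMG-CoA, CYP51A1, which demethylates lanosterol, and FDFT1, the squalene synthase, had the highest log2 fold changes, at 3.43, 2.34 and 2.17. PMVK, which makes mevalonate diphosphate, was among the tested genes that were not called (-0.06, FDR 0.78, edgeR). INSIG1 lay slightly above the median of these genes and STARD4 near it, whereas SREBF2 lay below all of them but PMVK.

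Of 14 genes of fatty acid synthesis and its regulation, 13 were found and 11 tested, and 8 were higher and 0 lower (edgeR, FDR under 0.05), with a median log2 fold change of 0.92. The share called was 72.7%, against 47.7% of all tested genes. The highest were LPIN1, a phosphatidate phosphatase (2.97), ACLY, which makes cytosolic acetyl-CoA (2.06), and ELOVL6, a fatty acid elongase (1.18). FASN, the fatty acid synthase, averaged 3251 ± 793 CPM before and 6167 ± 1477 CPM after CD (mean ± SD of 3 libraries) and rose by 0.92 in log2 (FDR 0.00662, edgeR). SCD, the stearoyl-CoA desaturase, rose by 0.55 (FDR 0.00843, edgeR), a call that was lost without control replicate 1. FASN and SCD were named here after their values were seen. The tested genes that were not called were ACACA, the acetyl-CoA carboxylase (-0.04, FDR 0.92), GPAM, an acyltransferase of glycerolipid synthesis (0.35, FDR 0.19), and MID1IP1, a regulator of the carboxylase (0.26, FDR 0.19), by edgeR. In CD replicate 3 the median of the list was 0.62 above the control mean in log2, against 1.13 and 1.12 in CD replicates 1 and 2. The median of the sterol genes was 1.452, 1.497 and 1.430 in CD replicates 1, 2 and 3. CD replicate 3 was also the lowest CD library for the median of 3 lists described next, namely ER partners (-0.15, against -0.02 and 0.02 in replicates 1 and 2), the COPII coat (-0.21, against 0.18 and -0.14) and nuclear partners (-0.46, against 0.14 and 0.12).

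Among 16 tested genes that work with INSIG and SCAP in the ER or degrade proteins of the circuit, 4 were higher and 3 lower (edgeR, FDR under 0.05), with a median log2 fold change of -0.02. The share called, 43.8%, was near the 47.7% of all tested genes, so the values that follow are those of single genes and give no result about the list. The higher genes were FBXW7, which marks nuclear SREBPs for degradation (1.09, FDR 0.00123), PAQR3, which anchors the SCAP complex in the Golgi (1.04, FDR 5.97e-04), RNF145, a ubiquitin ligase of SCAP (0.62, FDR 0.0103), and MARCHF6, an ER ubiquitin ligase (0.37, FDR 0.0400), by edgeR. MARCHF6 was not called in 7 and RNF145 in 1 of 15 alternative settings. Among the lower genes were AUP1, a partner of ER ubiquitin ligases, and USP20, a deubiquitinase of HMG-CoA reductase. AUP1 was lower by edgeR with a log2 fold change of -0.80 (FDR 5.35e-04). USP20 was at -0.43 by edgeR (FDR 0.0214), and 3 of the 15 settings did not call it. RNF139, a ubiquitin ligase that binds INSIG proteins, was not called, with a log2 fold change of 0.23 (FDR 0.18, edgeR). SPRING1, a cofactor of the SREBP pathway in the Golgi, had a log2 fold change of 0.01 (FDR 0.97, edgeR).

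Of the COPII coat, the vesicle machinery that carries SCAP and SREBP out of the ER, 11 genes were tested. By edgeR 0 were higher and SEC16A alone was lower, at -0.65 (FDR 0.0323), whose call was lost in 5 of 15 settings, without control replicate 1, 2 or 3 among them. At an unadjusted p under 0.05, 0 were higher and 4 lower. The share called was 9.09%, against 47.7% of all tested genes, and the list median was -0.04. DESeq2 and limma-voom each called 0 higher and 1 lower, and limma-voom with sample weights called 1 higher and 5 lower.

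Among 14 tested partners of nuclear SREBP and regulators of SREBF1 transcription, 4 genes were higher and 2 lower (edgeR, FDR under 0.05), with a median of 0.02. Here too the share called, 42.9%, was near that of all tested genes. NR1H2 and NR1H3, the LXR receptors that bind oxysterols and drive SREBF1, were higher, with log2 fold changes of 0.59 (FDR 0.00165) and 0.68 (FDR 0.0127), as was their partner RXRB at 0.62 (FDR 0.00128, edgeR). RXRA, the other RXR receptor tested, was at -0.04 (FDR 0.85, edgeR). NR1H3 was not called without control replicate 2 or CD replicate 2. The subunits of NF-Y, a factor that binds beside SREBP at many promoters, went different ways, with NFYB higher (0.85, FDR 0.00562) and NFYA and NFYC lower (-0.81, FDR 0.00127, and -0.57, FDR 0.00283, edgeR).

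The site-1 and site-2 proteases also cut other membrane proteins, of which 8 were tested. In edgeR, 2 were higher and 4 lower (FDR under 0.05), with a median log2 fold change of -0.27. The share called was 75%, against 47.7% of all tested genes, and 8 genes are too few for a result about the list. CREB3L3, a membrane-bound factor of liver and gut, had 3, 0 and 0 counts in the control libraries and 149, 149 and 100 in the CD libraries. The ratio of the summed counts after scaling was 131, and counting error alone allows 44.6 to 639 (Clopper-Pearson, 95%). All 3 control counts were thus from control replicate 1. Without that library the control group had 0 counts, and a floor of 3 counts set in their place gave a ratio of 91.3. Without control replicate 3 the ratio was 79.4. CREB3L3 passed the filter on low counts only through its CD libraries. That its call was kept in each of the 15 settings is therefore no added support. GNPTAB, a subunit of the enzyme that tags lysosomal hydrolases, rose by 1.58 (FDR 5.20e-04, edgeR), with 433, 439 and 501 counts in control and 2104, 1313 and 829 counts in CD libraries. CREB3L2, CREB3L1 and ATF6, transcription factors released by the same cuts, were lower at -1.45, -0.87 and -0.52 (FDR 0.00494, 2.44e-04 and 0.0221, edgeR). ATF6 was not called without control replicate 1, 2 or 3.

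Among 5 tested genes for other carriers of sterol between membranes, 3 were higher and 0 lower (edgeR, FDR under 0.05), with a median of 0.55. The share called was 60%, against 47.7% of all tested genes, and 5 genes are too few for a result about the list. STARD5, of the same subfamily as STARD4, went from a mean of 20.8 ± 1.46 CPM to one of 98.4 ± 15.8 CPM (SD of 3 libraries). Its log2 fold change was 2.24 (standard error 0.15, 95% interval 1.91 to 2.58, FDR 2.45e-06 by edgeR). The interval of STARD4, 0.96 to 2.22, overlapped that of STARD5, and the difference between these genes was not tested. STARD3NL, a late endosomal tether (0.81, FDR 0.00349), and GRAMD1A, which moves cholesterol from the plasma membrane to the ER (0.55, FDR 0.00439), were also higher in edgeR. STARD3, the late endosomal START protein, was at -0.01 (FDR 0.95, edgeR). For the sterol genes, the fatty acid genes and these carriers, the number of lower genes was also 0 at an unadjusted p under 0.05 in edgeR and with DESeq2 and limma-voom.

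**Figure D4:**
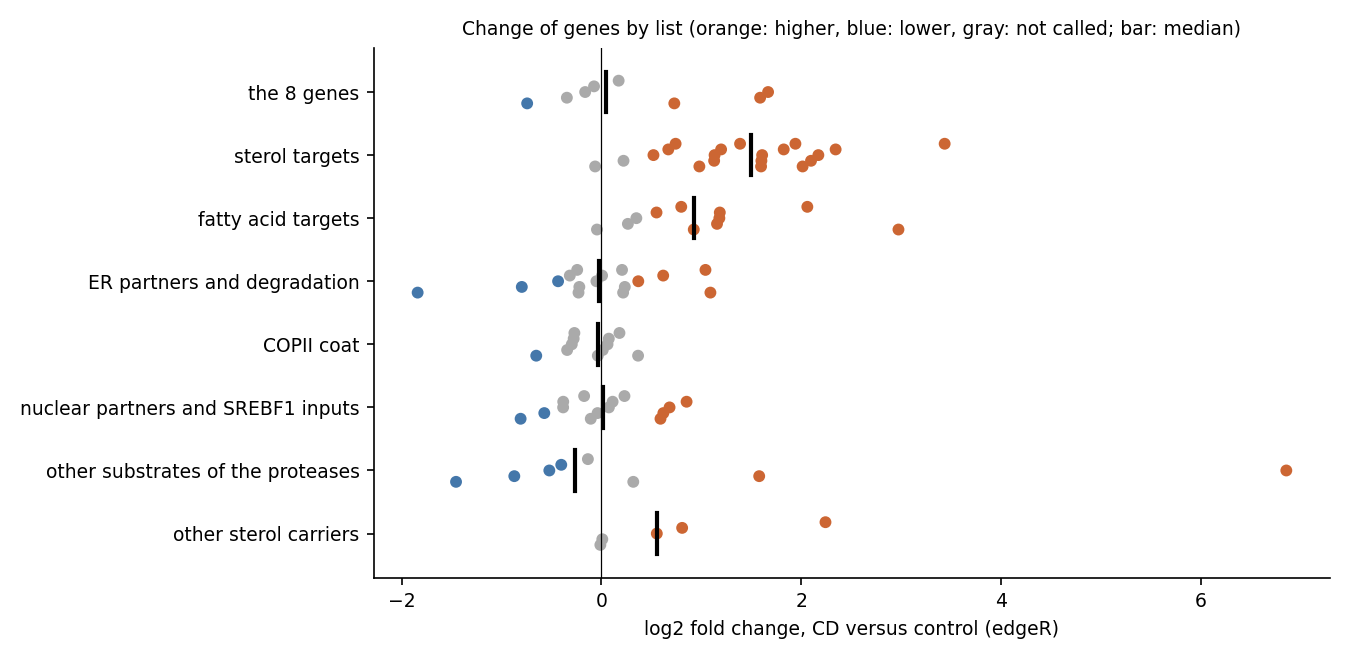
Each point is 1 tested gene, placed by its edgeR log2 fold change (CD over control) on the horizontal axis and by its list on the vertical axis, with a black bar at the list median. The medians of the sterol and fatty acid genes lie at 1.49 and 0.92, while the 8 genes of the circuit span from -0.74 to 1.67 around a median of 0.05.

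The genes most like a member in profile were found by the root mean square difference of log2 CPM relative to the control mean, over 6 libraries and 10088 other tested genes with a symbol. Nearest to INSIG1 were ELMO1 (0.0775), SQLE, the squalene epoxidase (0.0866), and MXD1 (0.0883). Nearest to STARD4 were PELI1 (0.0947), N4BP2 (0.13) and DUSP16 (0.15). EPHA2 (0.0346), FKBP10 (0.0535) and WDR91 (0.0631) lay closest to SREBF1, and ZNF646 (0.0449), CAPN2 (0.050) and SLC12A4 (0.0518) to SREBF2. One of these 12 genes, SQLE, is on the list of sterol genes.

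**Figure D5:**
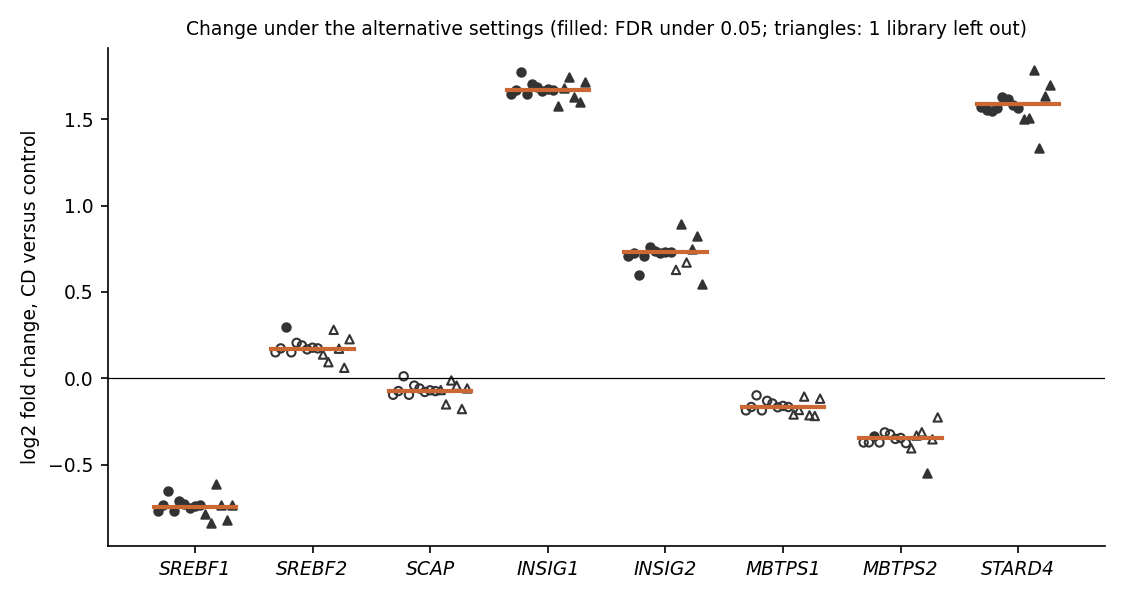
For each gene, the vertical axis shows the log2 fold change, CD over control, under 15 alternative settings (14 for STARD4), filled where the FDR was under 0.05, with circles for other tools, scalings, filters and the replicate number as a term, triangles for 1 library left out, and an orange line at the reported value. SREBF1, INSIG1 and STARD4 were called at each setting tested, INSIG2 at 13 of 15, SREBF2 at 1, MBTPS2 at 2, and SCAP and MBTPS1 at none.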

How the data were processed

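RNA of Mv1Lu cells was sequenced from 3 control and 3 CD libraries, grouped and numbered by the sample labels. According to the paper's methods and the submitters' processing notes, the authors isolated poly(A) mRNA, made Nextera XT libraries, trimmed the reads with fastp 0.20.1, aligned them to the mink assembly NNQGG.v01 with STAR 2.7.2a and compared groups with DESeq2 1.30.1 in R 4.0.3. The authors deposited raw counts per gene, which were used here. Their normalized expression files, one per library, were not used here. The program that assigned reads to genes and its use of strand are not given in the sources used here, so counts of overlapping or antisense genes and of near-identical copies are uncertain. The table's 4 rows of reads that name no gene held 29.3% to 47.2% of the reads of a library and were left out of library sizes and tests.

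The tests were made in R 4.3.3 with edgeR 4.0.16. The filter was filterByExpr (minimum count 10, minimum total 15), scaling was by TMM, and glmQLFit (robust) and glmQLFTest were run over all 6 libraries with the condition as the only term. Standard errors were the log2 fold change divided by the square root of F, with a median of 0.18 over the tested genes. Ratios were compared by a two-sided exact permutation test over libraries. Likeness and list profiles used a pseudocount of 0.1 CPM. The fits were tested on simulated data.

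Members and lists were chosen with earlier results of these data known. The genes named are the 8 members, for each list up to 3 called genes with the highest and 3 with the lowest log2 fold change and genes whose call differs from that of a partner, and the 3 nearest genes in profile for 4 members. Other genes, such as FASN, SCD, ACACA, GPAM, MID1IP1 and SPRING1, were named after their values were seen. Symbols in the table that differ (KIME for MVK, ERG1 for SQLE, GPAT1 for GPAM, SC23A, SC23B, STAR3 and INSI2) were matched by description. EBP, FADS1, PGRMC1, SEC24C and STARD6 were not analysed here, and some list genes that enter the counts and medians are not reported here by name. The gene annotation at hand is of another assembly, so no coordinates or lengths are given.

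The alternatives were DESeq2 1.42.0, limma-voom (limma 3.58.1) without and with sample weights, 3 other scalings, no filter on low counts, at least 50 counts in 3 libraries, a block for the replicate number, omission of each library in turn, an FDR of 0.01 for the number of called genes, and for ratios a pseudocount of 1. A fit with sample weights and without CD replicate 3 was added after seeing the data.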

Additional observations from a re-analysis of the deposited data

How the results depend on the processing

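Over 15 alternative settings (14 for STARD4, which a minimum of 50 counts left untested), SREBF1, INSIG1 and STARD4 kept their direction and call, with log2 fold changes of -0.84 to -0.61, 1.58 to 1.77 and 1.33 to 1.78. SCAP (-0.18 to 0.01) and MBTPS1 (-0.22 to -0.10) were not called at any of them. With limma-voom and sample weights, SREBF2 (0.30) was called higher and MBTPS2 (-0.33) lower, so that 2 of the 8 genes were lower, and 1 COPII gene was higher and 5 were lower. COPII genes called lower numbered 2 with total counts and 0 without a filter, and at an FDR of 0.01 the number of all genes called higher was 2006 instead of 3016. With each library left out, INSIG2 ranged from 0.55 to 0.89, MBTPS2 from -0.55 to -0.23, and the members called lower from 1 to 2. Over the same omissions, the genes called higher numbered 0 to 2 for COPII and 2 to 5 for ER partners, and those called lower 0 to 3 for COPII, 2 to 4 for other substrates of the proteases and 0 to 1 for sterol genes. The cause of these shifts was not tested. The log2 differences in the 6 ratios moved by less than the SD within groups, pooled over control and CD, under every alternative run. They moved by more than the control SD alone for MBTPS1/MBTPS2, which went from 0.21 to 0.34 when CD replicate 1 was left out and to 0.12 when CD replicate 3 was, and for SREBF1/SREBF2, which went from -0.91 to -0.95 when CD replicate 3 was left out. Across all settings, the median log2 fold change of all genes moved by at most 0.045 in size. Control and CD libraries share replicate numbers, but their deviations showed no pairing by number (correlations -0.02, -0.40 and -0.20). Closest to their own number were 0 of 3 control libraries. A check on 3 libraries per group cannot exclude a pairing. With the number as a replicate block, 2772 genes were higher and 2636 lower, and of the 8 genes the same 4 were called (INSIG1 1.67, STARD4 1.56, INSIG2 0.73, SREBF1 -0.73). With sample weights and without CD replicate 3, chosen after seeing the data, 3 of the 8 genes were higher and 1 lower. STARD4 and INSIG2 had the fewest reads and the largest standard errors of the 8 genes (0.28 and 0.22). The part of the read number in these errors was not tested.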
